A study of Mus musculus with 7 samples.

Results

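Chromatin modifier and remodeller genes were followed through the deposited m6A MeRIP-Seq peak tables of injured mouse muscle and C2C12 myoblasts. The members are 59 listed genes that write, erase or read out histone and DNA methylation and acetylation, or that move nucleosomes, out of 21900 protein-coding genes in the RefSeq annotation of GRCm38. They were found by gene symbol in the muscle table and by RefSeq transcript in the C2C12 list, where Jade1 and Jade2 appear under the older symbols Phf17 and Phf15. The muscle came from METTL3 cKO mice (Pax7CreERT2; METTL3 flox/flox) and from CTL mice (Pax7CreERT2; METTL3 wt/wt) at day 2 after CTX, a toxin that destroys muscle fibres, and all of these mice had received tamoxifen. Both genotypes are on a C57BL/6 background, the age of the mice and the number of mice per library are not given in the sources used here, and Cre acts in Pax7+ muscle stem cells, whereas muscle also holds many other cells. There was 1 IP library and 1 input library for each genotype. C2C12 is a mouse myoblast line, for which there were 2 IP libraries and 1 input library. The labels call the genotype of the C2C12 IP libraries a knockout and that of the C2C12 input normal, while no knockdown is named for it in the methods. The protocol text shared by all samples covers growing as well as differentiating C2C12 cells and does not say which state these libraries came from.

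In m6A MeRIP-Seq, fragments of mRNA are captured with an antibody against N6-methyladenosine (m6A), and stretches where IP reads outnumber input reads are called as peaks. The muscle table holds 5412 peaks in 3983 genes, with 1 fold enrichment of IP over input per peak and no value per library or genotype. Its peaks are those that passed a differential test of the authors between the genotypes, so a gene that is not listed can still carry m6A. The C2C12 list holds 5433 peaks in 3970 genes, with position, region and distance from the transcription start site (TSS), and with no enrichment or p-value. The tables hold no read counts, so depth is unknown and no value has a replicate. Since each table pools its libraries, nothing below compares METTL3 cKO with CTL. The labels name the cell type of the muscle libraries as muscle stem cell. Of 5 markers of muscle stem cells and myoblasts, Pax7, Myod1, Myog and Des have a peak in the muscle table and Myf5 has none. None of 3 muscle fibre markers (Acta1, Ckm, Myh4) is listed. Of 4 leukocyte markers Ptprc alone is listed, both fibroblast markers (Pdgfra, Col1a1) are listed, and of 2 endothelial markers Cdh5 is listed and Pecam1 is not. In bulk samples such as these, fewer cells of a type and less RNA per cell cannot be told apart, and a peak list is not a measure of expression.

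Histone methyltransferases and acetyltransferases add marks that recruit other proteins to chromatin, demethylases and deacetylases remove them, and the SWI/SNF and CHD remodellers use ATP to shift nucleosomes. DNMT enzymes methylate cytosine and TET enzymes oxidise it. In muscle stem cells these enzymes are known to open or close myogenic genes as the cells leave quiescence, divide and differentiate. m6A is deposited on mRNA by the METTL3 complex, often at a GGAC sequence, and is usually found in long exons and around the stop codon.

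The only peak of a member for which both a listed GGAC site and its sequence were at hand is the 5′UTR peak of Ep300, which encodes the acetyltransferase p300. The sequence is shown because the muscle and C2C12 peaks coincide there, and the capitals mark the GGAC site. It lies at chr15:81586210-81586239 on the plus strand (RefSeq, GRCm38.p6), and the first G of the site is 9 bases downstream of the start at 81586214 in the RefSeq promoter table. Distances given further on are counted from the 5′ end of the gene span, which for Ep300 is 81586209.
Ep300: atgagaaggaggaGGACagcgccgaggagg

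A peak was listed in muscle for 37 of the 59 genes (62.7%), where 16.9% of all protein-coding genes are listed. A peak was also listed in C2C12 for 37 genes, against 17.6% of protein-coding genes. Both lists held 27 genes, which is 73.0% of the members in each list. Among all protein-coding genes, 43.2% of those in the muscle table were also in the C2C12 list and 41.4% of those in the C2C12 list were also in the muscle table. The members are long genes, with a median span of 62363 bases against 17146 for all protein-coding genes. For the 29 members with spans between the members' quartiles (38029 to 91376.5 bases), 18 (62.1%) were listed in muscle and 18 in C2C12. Of the 3561 protein-coding genes with spans in that range, 23.8% were listed in muscle and 21.3% in C2C12. The protein-coding genes were not limited to those expressed in these samples, and a gene without RNA cannot yield a peak. The part of expression in these shares was not tested. These shares are descriptions, because the members were proposed with these tables known.

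In muscle alone 10 members were listed, in C2C12 alone another 10, and in neither 12. Of all protein-coding genes, 16.9% were in the muscle table, 17.6% in the C2C12 list and 7.32% in both. Most genes are thus in neither, so a missing member is the usual case and is no result about its complex. The members listed in neither are Ezh1, Ezh2 and Eed (subunits of Polycomb repressive complex PRC2), Kdm1a, Kdm5a and Kdm5b (H3K4 demethylases), Kat7 and Jade3 (the catalytic subunit and a scaffold of the HBO1 acetyltransferase complex), Hdac7, Smarca4 and Smarca2 (the alternative ATPases of SWI/SNF) and Dnmt1 (maintenance DNA methyltransferase). In SWI/SNF, neither ATPase was listed, and the DNA-binding subunits Arid1a, Arid1b and Arid2 were listed in both tables. Of the 4 members that encode PRC2 core subunits, only Suz12 was listed. Rbbp4 and Rbbp7, PRC2 subunit genes that are not members, were listed in muscle (29.3) and in C2C12, respectively.

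**Figure D1:**
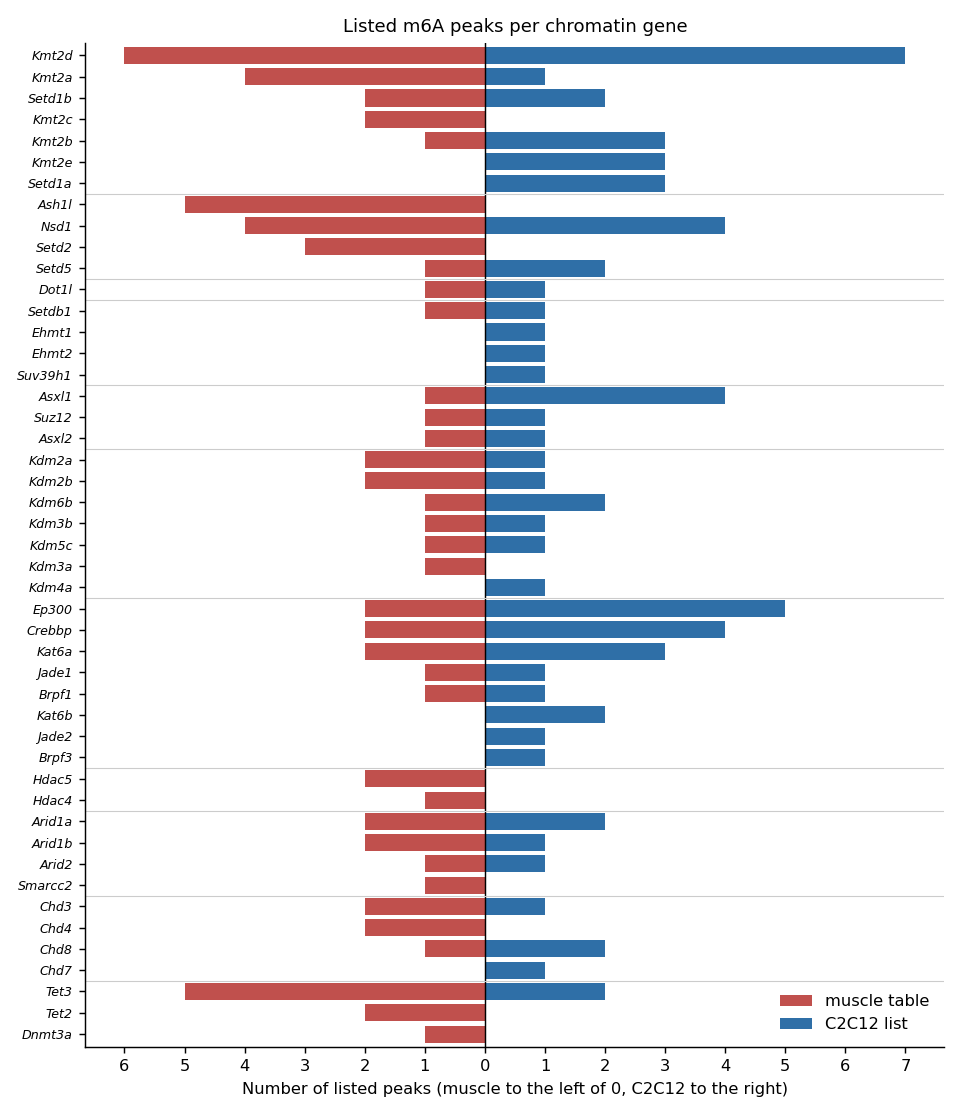
Number of listed m6A peaks for each of the 47 chromatin genes with a peak in at least 1 table, muscle to the left and C2C12 to the right of 0, with lines between functional classes. Kmt2d has the most peaks on either side, 6 in muscle and 7 in C2C12.

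The muscle table lists 71 peaks for the members and the C2C12 list also 71. More than 1 peak was listed for 19 of the 37 genes in muscle (51.4%, against 25% of all genes in that table) and for 16 of the 37 in C2C12 (43.2%, against 25.8%). At least 3 peaks were listed for 6 genes in muscle (16.2%, against 6.45%) and for 9 in C2C12 (24.3%, against 7.19%). Nsd1 and Kmt2d had at least 3 in each table. The shares of all genes were not limited to genes of like span, and the members are long genes, so the part of gene length was not tested.

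The fold enrichment of the strongest peak of each gene ran from 2.5 to 856, with a median of 35.0 (95% interval of the median from order statistics 16.7 to 132, n = 37 genes). The median over all 3983 genes was 19.3, which lies inside that interval. Over the 848 listed genes with spans between the members' quartiles it was 19.2, against 40.5 for the 18 members in that range. The strongest member peaks were also longer, with a median of 719 exon bases against 420 for all genes. The part of peak length, region and number of peaks per gene was not tested. A strongest peak of 100 or higher was found for 14 of the 37 members (37.8%), against 20.8% of all genes in the table. The other 23 lay below 100, so strong and weak genes stood side by side, and the strongest peak of the whole table reached 3860. The highest values were those of Jade1 (856), Tet2 (631), Crebbp (604), Asxl2 (488), Tet3 (458), Kat6a (454), Arid1b (387) and Kdm6b (328), from 5 classes, and the lowest those of Brpf1, Dot1l, Smarcc2 and Chd3.

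**Figure D2:**
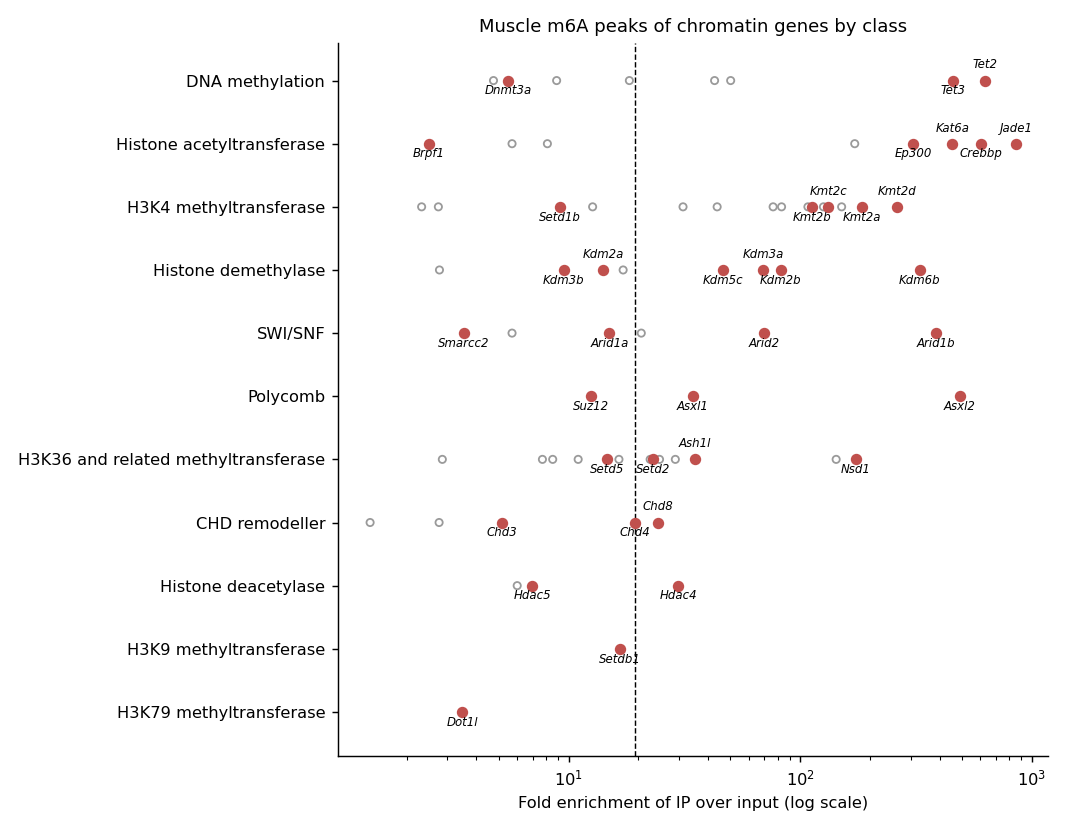
Fold enrichment of the muscle peaks of chromatin genes on a log axis, by class. Filled points are the strongest peak of each named gene, open points its other peaks, and the dashed line is the median strongest peak of all genes (19.3). Strong and weak genes occur within 1 class, as for Jade1 (856) and Brpf1 (2.5).

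Of the 7 genes grouped with the H3K4 methyltransferases, enzymes that mark promoters and enhancers, 5 were listed in muscle and 6 in C2C12. Kmt2d, the enhancer enzyme MLL4, carried 6 muscle peaks with 55 GGAC sites over 10443 exon bases. Its strongest peak lies in the coding sequence at chr15:98841518-98846450 with a fold enrichment of 261, rank 308 of all 5412 peaks. Its other coding peaks had fold enrichments of 83.1, 76.4 and 12.7, and its 3′UTR peaks 151 and 31.2. Strong and weak peaks thus lay in the same gene. Kmt2a, the founding MLL gene, had coding peaks at 185, 108 and 2.74 and a 3′UTR peak at 43.8. Kmt2b had 1 coding peak at 112, and Kmt2c, the paralog of Kmt2d, had coding peaks at 132 and 126 and none in C2C12. Setd1b stood apart in muscle, with 3′UTR peaks at 9.2 and 2.32 only. Kmt2e and Setd1a were listed in C2C12 alone, each with 3 coding peaks.

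The 4 genes grouped with the H3K36 methyltransferases, enzymes mostly linked to transcribed gene bodies, were all listed in muscle with 13 peaks between them. Nsd1 had coding peaks at both ends of the gene. The first begins 3695 bases from the TSS with a fold enrichment of 143, and the second begins 100639 bases from it with 174. Ash1l had 4 coding peaks between 8.54 and 28.9 and a 3′UTR peak at 35. Setd2, the main H3K36 trimethylase, had coding peaks at 23.1, 22.5 and 16.5 that lie within 15735 to 18970 bases of the TSS. Neither Ash1l nor Setd2 was listed in C2C12. Setd5 had a 3′UTR peak of 14.6 in muscle and 2 coding peaks in C2C12. Dot1l, the H3K79 methyltransferase, had a single 3′UTR peak of 3.48 with 2 GGAC sites, among the lowest of the members.

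The 4 members that are H3K9 methyltransferases, which act in heterochromatin and gene silencing, were split between the tables. All 4 were listed in C2C12 with 1 coding peak each. In muscle only Setdb1 was listed, with a fold enrichment of 16.7. For Ehmt1, Ehmt2 and Suv39h1 the C2C12 peaks lie 35168, 6699 and 3659 bases from the TSS. Of the 8 other genes grouped with this class, not all of them methyltransferases, 5 were listed in muscle, 3 in C2C12 and 3 in both. Wiz and Cbx5 were listed in muscle alone. Suv39h2, Prdm2 and Atf7ip were listed in both, and Setdb2, Cbx1 and Cbx3 in neither. The split is therefore described for the 4 members only. Since the muscle table holds only peaks that passed the differential test, this split is not a measured difference between the tissue and the cells.

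Of the Polycomb group genes, which maintain repression, Asxl2 had the strongest peak. This peak covers 2428 bases annotated to the 3′UTR at chr12:3499961-3502388, and had 12 GGAC sites and an enrichment of 488 (rank 125). Its paralog Asxl1, a partner of the H2A deubiquitinase BAP1 as Asxl2 is, had 1 muscle peak annotated as exon at 34.4 but 4 peaks in C2C12, where Asxl2 had 1. Suz12 had a coding peak of 12.5 beginning 300 bases from the TSS, with no GGAC site. It is the strongest member peak without one.

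Among the histone demethylases, 6 of 10 genes were listed in muscle, with strongest peaks from 9.51 to 328. Kdm6b, the inducible H3K27 demethylase JMJD3, led with a coding peak over 3088 exon bases at chr11:69403548-69407085 with 12 GGAC sites. Kdm2b followed with a 3′UTR peak at 82.6 and a coding peak at 17.2, and Kdm3a, an H3K9 demethylase, with a coding peak at 69.4. Kdm5c had a coding peak at 46.6. Kdm2a, the paralog of Kdm2b, had 3′UTR peaks at 14.1 and 2.77, and Kdm3b had a coding peak at 9.51. Kdm4a was listed in C2C12 alone, with a 3′UTR peak.

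The histone acetyltransferases and their scaffolds held the strongest peaks of any histone-modifying class. Jade1, which directs HBO1 to histone H4, had a single peak at chr3:41613187-41614353 which holds 5 GGAC sites and was enriched 856-fold, rank 36 of all peaks. The authors annotate it as exon in muscle, and the C2C12 peak at the same distance from the TSS is annotated as coding. Crebbp, which encodes CBP, had a coding peak at chr16:4083784-4086711 with 15 GGAC sites at 604. Kat6a, the catalytic subunit of the MOZ complex, had a coding peak at chr8:22935670-22940949 with 17 GGAC sites at 454. Ep300 had a coding peak of 308 and the 5′UTR peak shown above, at 172 with 10 GGAC sites. The other 5′UTR peak of a member, that of Crebbp, was weak (8.1) and held no GGAC site. Kat6b and Brpf3, close relatives of Kat6a and Brpf1, were listed in C2C12 alone. Brpf1, a scaffold in the same complex as Kat6a, had the weakest strongest peak of all members, 121 bases at 2.5.

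Of the class IIa histone deacetylases, which bind MEF2 and restrain muscle differentiation, Hdac4 had a 3′UTR peak at 29.7 and Hdac5 peaks at 6.97 and 6. None of the 3 was listed in C2C12. In SWI/SNF, Arid1b had a coding peak at 387 with 14 GGAC sites and a 3′UTR peak at 20.6. Its paralog Arid1a had a coding peak at 15 and a 3′UTR peak at 5.7, and Arid2 a coding peak at 70.1. Smarcc2, a core subunit, had 1 3′UTR peak at 3.53 with no GGAC site. Among the CHD remodellers the strongest peaks were 24.4 for Chd8, 19.3 for Chd4, which equals the median of all genes, and 5.17 for Chd3, and Chd7 was listed in C2C12 alone. The Chd8 peak overlaps the lncRNA Gm26590, to which its reads could also belong.

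Of the DNA methylation genes, the TET dioxygenase genes Tet2 and Tet3 were far above Dnmt3a. Tet1 and Dnmt3b, which are not members, were listed in neither table. Tet2 had a peak at chr3:133466256-133469378 annotated as exon, enriched 631-fold and holding 8 GGAC sites, and a coding peak at 42.7. Tet3 had 5 muscle peaks, of which the coding peak at chr6:83367768-83373197 was the strongest at 458 with 11 GGAC sites. The other peaks of Tet3 lay at 50.1, 18.3, 8.88 and 4.74, and the first of these spans the microRNA gene Mir6374. The de novo methyltransferase Dnmt3a had 1 coding peak at 5.5. Tet2 was not listed in C2C12, and Tet3 had 2 coding peaks there.

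Peaks of the members lay in coding sequence more often than peaks at large. In muscle, 39 of 71 (54.9%, 95% Wilson interval 43.4 to 66.0) were annotated as coding, against 31.9% of all peaks, and 21 (29.6%, 20.2 to 41.0) as 3′UTR, against 48%. The 5′UTR held 2 (2.82%, against 5.14%), and 9 were annotated only as exon (12.7%, against 14.9%). In C2C12, 66 of 71 (93.0%, 84.6 to 97.0) were coding, against 52.6%, and 4 (5.63%) were 3′UTR, against 25.9%. No member peak in C2C12 was intronic, where 12.4% of all C2C12 peaks are, or in the 5′UTR, which holds 6.29%. The 1 peak annotated as upstream (1.41%, against 1.97%) is that of Ep300. A count of 0 of 71 allows up to 5.13% at the upper Wilson bound. The intervals cover counting error only, and peaks of 1 gene share a transcript. Exon lengths were not used here, so the part that long coding exons have in these shares was not tested. Of the 7 members whose muscle peaks were all in the 3′UTR, 5 were listed in C2C12, each with a coding peak there. Dot1l, Setd1b and Setd5 are among them, as are Asxl2 and Kdm2a. In Asxl2 the C2C12 peak labelled coding (73287 to 73555 bases from the TSS) lies inside the muscle peak labelled 3′UTR (73104 to 75531). The tables can thus give the same place different labels, and unlike regions need not mean unlike places.

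**Figure D3:**
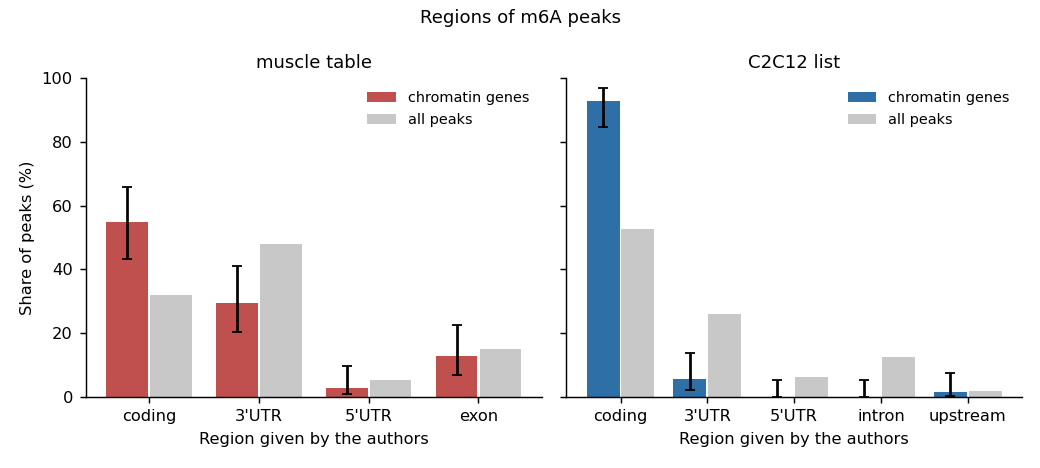
Share of peaks (%) by the region the authors give, for chromatin genes (71 peaks in each table, bars with 95% Wilson intervals) and for all peaks (grey). Coding peaks make up 54.9% of the member peaks in muscle and 93.0% in C2C12, and start codon, stop codon and downstream peaks, which no member has, are not drawn.

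A GGAC site was listed in 60 of the 71 muscle peaks (84.5%, 74.3 to 91.1), against 70.6% of all peaks. The density was nearly the same, 4.6 sites per kb of exon in member peaks and 4.63 in all peaks. Member peaks were longer, with a median of 571 exon bases against 360. The 11 member peaks without a site were at most 301 bases long and had fold enrichments of at most 12.5. When the peaks were split at 12.9, the median of the whole table, all 46 member peaks in the upper part held a site, against 85.8% of all such peaks. Their median length was 1035 exon bases, against 660. Below that median, 14 of 25 member peaks held a site (56%), against 55.2% of all peaks there, and the median lengths were 241 and 240 bases. The higher share in members thus went together with longer peaks, at nearly the same pooled density. By region the density differed, at 4.7 sites per kb in member coding peaks against 5.04 in all coding peaks, and 4.73 against 4.12 in the 3′UTR. Region also matters for the share, as 84.5% of all coding peaks but 62% of all 3′UTR peaks held a site, and members had more coding peaks. Length and region were not separated. The 19 member peaks at 100 or higher held between 1 and 19 sites, the fewest in Kmt2c and the most in Kmt2d.

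**Figure D4:**
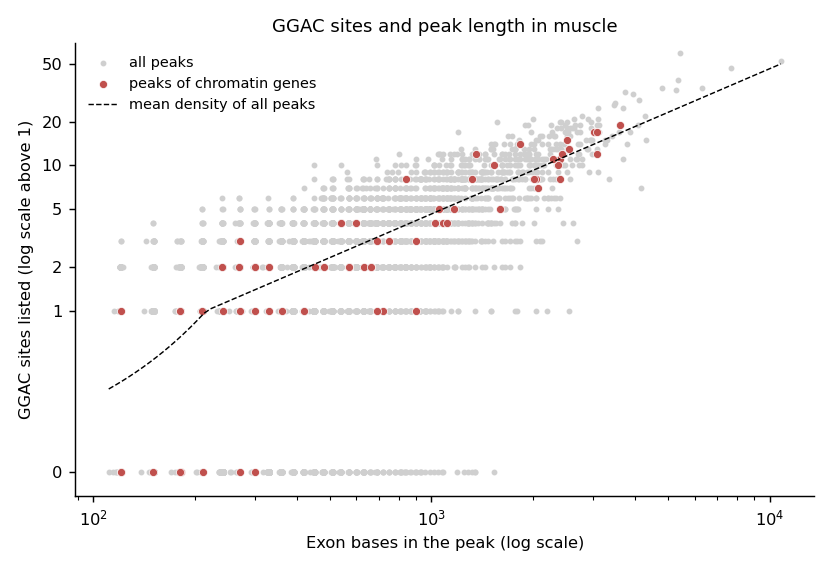
GGAC sites listed per muscle peak against the exon bases of the peak, both on log axes (the vertical axis is linear below 1), for chromatin genes (red) and all peaks (grey). The dashed line is the mean density of all peaks, 4.63 sites per kb, and the red points lie on both sides of it.

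The submitters name mm10 for all samples, but 9.43% of the C2C12 peaks lie in the GRCm38 span of their gene, against 98.4% of the muscle peaks. Which build the C2C12 positions are on was not settled here, so the tables were compared by distance from the TSS, taking the 5′ end of the RefSeq gene span as the TSS in muscle. Of the 56 C2C12 peaks in the 27 shared genes, 25 (44.6%, 32.4 to 57.6) overlapped a muscle peak by at least 1 base, and they fell in 14 genes. Over all shared genes the share was 47.9% of 2370 peaks, so the members did not stand out in this respect. The muscle peaks that a C2C12 peak overlapped were the strong and long ones. The 18 overlapped member peaks had a median fold enrichment of 173 (34.4 to 856) and 2040 exon bases. The 33 others had a median of 12.5 (2.32 to 458) and 301 bases. All shared genes showed the same order, with medians of 87.1 and 861 bases for 933 overlapped peaks and 9.51 and 301 bases for 1325 others. Longer peaks have more room to be overlapped, and length and enrichment were not separated here.

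The members with several C2C12 peaks showed both cases. In Crebbp, C2C12 peaks at 127751, 128632 and 129188 bases from the TSS all overlapped the muscle peak that runs from 127246 to 130173, and the C2C12 peak at 33583 overlapped none. In Ep300, C2C12 peaks at 63183, 64052 and 64652 overlapped the coding peak from 62660 to 65058, and the C2C12 peak at -1 lay in the 5′UTR peak from -828 to 701, whereas the one at 14977 overlapped none. Crebbp and Ep300 are paralogs that encode acetyltransferases of the same family, and their strongest peaks lay at 97.0% and 96.9% of the gene span. A place near the end is common, with a median of 90.7% over all peaks, so it is not particular to this pair. Their 5′UTR peaks differed, at 8.1 in Crebbp and 172 in Ep300. In Kat6a, C2C12 peaks at 78823 and 80933 lay in the muscle peak, whereas the C2C12 peak at 2950 had no listed counterpart. In Nsd1, C2C12 peaks at 3924, 102815 and 103711 overlapped both strong coding peaks, and the one at 37825 did not. Jade1, Arid1b, Asxl1, Asxl2, Arid2, Kdm5c, Kdm2b, Kmt2a and Kmt2b each had 1 C2C12 peak on a muscle peak, and Kmt2d had 4. In the other 13 shared genes, among them Arid1a, Suz12, Setd1b, Setd5 and Kdm6b, no C2C12 peak met a muscle peak by distance from the 5′ end of the gene span. For Tet3 and Kmt2d the call changed with the TSS. Other starts came from RefSeq promoters, which were at hand for 45 of the members, so for the rest no other TSS was tried. A lack of overlap therefore does not show that the peaks lie in different places. With another RefSeq start of the gene, both C2C12 peaks of Tet3 met a muscle peak, as did the Kmt2d peaks at 26227 and 36795. Over all members this raised the share to 51.8%, and over all shared genes to 53.8%. The other starts were added to the first, so the share could only rise. Overlaps found with the first TSS were not rechecked with another.

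**Figure D5:**
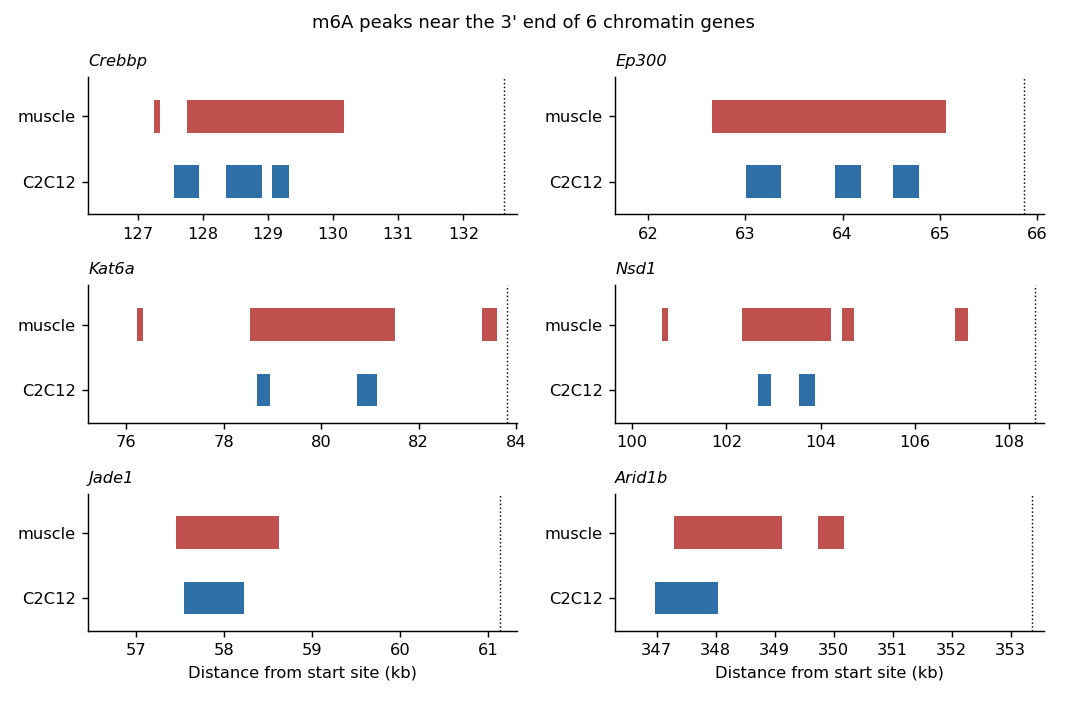
Listed peaks of 6 chromatin genes by distance from the TSS in kb, muscle above (red, exon blocks) and C2C12 below (blue), with the end of the RefSeq gene span as a dotted line. The genes and windows were chosen to show overlaps and peaks outside them are not drawn, so the maps say nothing of how common overlaps are, which was 25 of 56 C2C12 peaks.

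The position along the gene did not set the members apart. Member peaks were centred at a median of 87.7% of the gene span, against 90.7% for the 5135 peaks in the spans of their genes, and 54.9% of member peaks (43.4 to 66.0) lay beyond 80% of the span, against 64.0%. The strongest member peaks included early ones, such as Kmt2b at 11% of the span.

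The other 152 genes of the same families, which complete the complexes, were listed less often than the members. A peak was listed in muscle for 46 (30.3%), in C2C12 for 56 (36.8%) and in both for 24 (15.8%), against 16.9%, 17.6% and 7.32% of all protein-coding genes. Their strongest muscle peaks ran from 2 to 571 with a median of 18.15 (n = 46), close to the 19.3 of all genes, and 9 of 46 (19.6%) reached 100. The 9 are Smarcd3 (571), a muscle and heart subunit of SWI/SNF, Srcap (371), Rbbp5 (277), Bicra (248), Kansl3 (223), Riox1 (218), Chd9 (176), Ncoa6 (155) and Ing2 (116). With 6 peaks, Chd9 had the most in C2C12 among these genes. Both sets were drawn up with results from these tables known, so the gap between the 2 sets is not a result about chromatin genes as such.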

How the data were processed

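m6A MeRIP-Seq was read from 1 muscle peak table (4 libraries) and 1 C2C12 peak list (3 libraries). The processing notes of the submitters name TopHat, MACS2 and mm10, without roles or versions, and the muscle columns are those of the R package exomePeak. The authors deposited for each muscle peak a ratio of IP to input, called fold enrichment here, and a p-value, listed as 0 for 20 of 71 member peaks. They also deposited the log2 fold, p and FDR of their comparison of the genotypes, which were not used. The FDR was read only to learn that 0 peaks exceed 0.05 after rounding. Columns of single samples left out numbered 0.

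Members and lists were chosen with earlier results of these data known. The genes named are the 8 highest and 4 lowest by strongest peak, those with 3 or more peaks in a table, the strongest of each class and those in neither table, with further members named to complete their classes. Other genes are named for 5 cell types and where a strongest peak reached 100.

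Symbols and transcripts were matched to RefSeq (GRCm38.p6) for 3811 of 3983 muscle genes and 3967 of 3970 C2C12 genes. Of matched peaks, 98.4% of muscle and 9.43% of C2C12 peaks lie in the GRCm38 span of their gene. In 99.8% of genes with several C2C12 peaks, the distances lead from the peak centres to 1 start within 2 bases. Of 105 listed GGAC sites inside RefSeq promoter windows, 90 read GGAC there. Promoter sequence was at hand for 45 members. The tables hold no values per library, so nothing was tested between groups. Overlap and intervals were tested on simulated data. Python 3.11.15, pandas 2.3.3, numpy 2.4.6, scipy 1.17.1 and matplotlib 3.10.9 were used.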

Additional observations from a re-analysis of the deposited data

How the results depend on the processing

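Alternatives to symbol matching, the peak threshold, the choice of peak and the meaning of shared were tried, and those based on distance from the TSS were chosen after seeing the data. Of 23 alternative values, 19 stayed within 1.5 times the count or within the 95% interval. Among them is the overlap share with other starts added, which could only rise. The 27 members in both lists became 14 when peaks had to overlap, which is a stricter rule by construction. The GGAC share of member peaks went from 84.5% to 100% at or above the median fold enrichment, against 85.8% of all such peaks. It was 94.6% for the strongest peak of each gene, against 74.1% over all genes. At a peak p of 1e-05 or lower it was 92.2%, and the share of all peaks at that threshold is not given here. The part of peak length and region in these shifts was not tested. The reading of DRACH and of regions from an exon annotation was not run, as no genome was used. No paired analysis was possible because neither table holds values per library. Depth is unknown, so no precision can be given for a fold enrichment.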
